A study of Saccharomyces cerevisiae with 16 samples.

Results

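The genes that encode the proteins of the cytosolic ribosome of budding yeast, Saccharomyces cerevisiae, are described here across a time course of total RNA on Agilent single-colour arrays. Members were taken by symbol: RPL or RPS followed by a digit, and RPP0, RPP1A, RPP1B, RPP2A and RPP2B. By the symbols of the RefSeq gene list, 137 genes met this rule, and 136 of the 6227 genes with a probe were members. RPL20A is named only, since no probe carried its systematic name. Of the 136 members, 80 belong to the large (60S) subunit, 5 of them to its stalk, and 56 to the small (40S) subunit. The members hold 58 pairs of A and B copies, 19 genes without a second copy, and RPL20B. Each member had 1 probe, which lay well above background on 16 of 16 arrays, so a filter on dim probes removed none of them.

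The 16 arrays came from 4 lines of hog1Δ cells, with 1 array per line at 0, 45, 90 and 150 min after methionine was taken out of the medium. In 3 lines (WT, H and 170) a version of HOG1, the osmotic stress kinase, sat behind the MET3 promoter, which methionine represses. The fourth line (vec, strain JBY13) held an empty plasmid. Wild-type HOG1 was in line WT. Labels for the others conflict: one label field calls line H HOG1D170A and line 170 HOG1D170A+F318L, while another calls line 170 D170A, so no mutation is assigned to either. Lines WT and H were hybridised on 1 slide, and vec and line 170 on the other. All lines share the hog1Δ background and the loss of methionine, so a change with time that vec also shows occurred without HOG1. Signals are given as log2 units above or below the 75th percentile of their array. The HOG1 signal was -2.32 to -1.67 in vec, 1.51 to 1.89 in the other lines at 0 min and 5.41 to 6.16 after removal, which follows the labels. HOG1 signal in these lines thus lay above that of vec already at 0 min, before methionine was removed. The 75th percentile lay between 4926 and 11306 units.

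Ribosomal protein genes form one of the largest co-regulated sets of yeast genes. Their promoters are bound by Rap1 with the forkhead-like factor Fhl1 and its coactivator Ifh1, and the activator Sfp1 and the TOR and protein kinase A pathways tie their transcription to nutrients and stress. Most of them exist as A and B copies from an ancient genome duplication, which encode identical or nearly identical proteins.

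The ribosomal protein genes rose together after methionine was removed, in all 4 lines. Against 0 min, 135 of 136 members were higher and 1, RPL15B, was lower at each of the 3 later times. The median change was 2.06 on the log2 scale (4.16-fold) at 45 min, 2.25 (4.77-fold) at 90 min and 2.07 (4.20-fold) at 150 min. The test was limma's, with the line as a term and p-values adjusted by Benjamini and Hochberg over 6165 genes at a threshold of 0.05, and the largest adjusted p of a member was 0.000636 at 45 min, 0.000543 at 90 min and 0.0362 at 150 min. Calls were common on these arrays: 31.8% of all genes were higher and 44.5% lower at 45 min, 33.7% and 41.1% at 90 min, and 33.6% and 40% at 150 min. The median of all genes moved by -0.17, -0.08 and -0.07. The size of the members' change stood apart from most genes in the array: 127 of 136 members were among the 500 genes with the highest change, and the median member lay at percentile 96.99 of all genes. With 1 array per line and time, the errors and p-values cover the spread between lines or between times, and the spread between cultures was not measured. Values are relative to each array's 75th percentile, so RNA per cell was not measured, and a larger share of expressing cells cannot be told apart from more RNA in each cell.

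The levels on the single arrays showed the same rise. The median member stood at 1.46 log2 units in line WT at 0 min and at 3.87, 4.16 and 3.99 at 45, 90 and 150 min. In line H it stood at 1.37 and then at 3.75, 3.88 and 3.74, and in line 170 at 1.60 and then at 4.02, 4.20 and 4.04. In vec it began higher, at 2.60, and then stood at 4.21, 4.32 and 3.996. The members together took 7.13% of the summed probe signal in line WT, 6.83% in line H, 12.2% in vec and 7.85% in line 170 at 0 min, and between 22.3% and 28.5% on the 12 later arrays. For 133 of 136 members every later array lay above every 0 min array, against 17.2% of all genes. The exceptions were RPL15B, RPL22B and RPS14B.

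**Figure D1:**
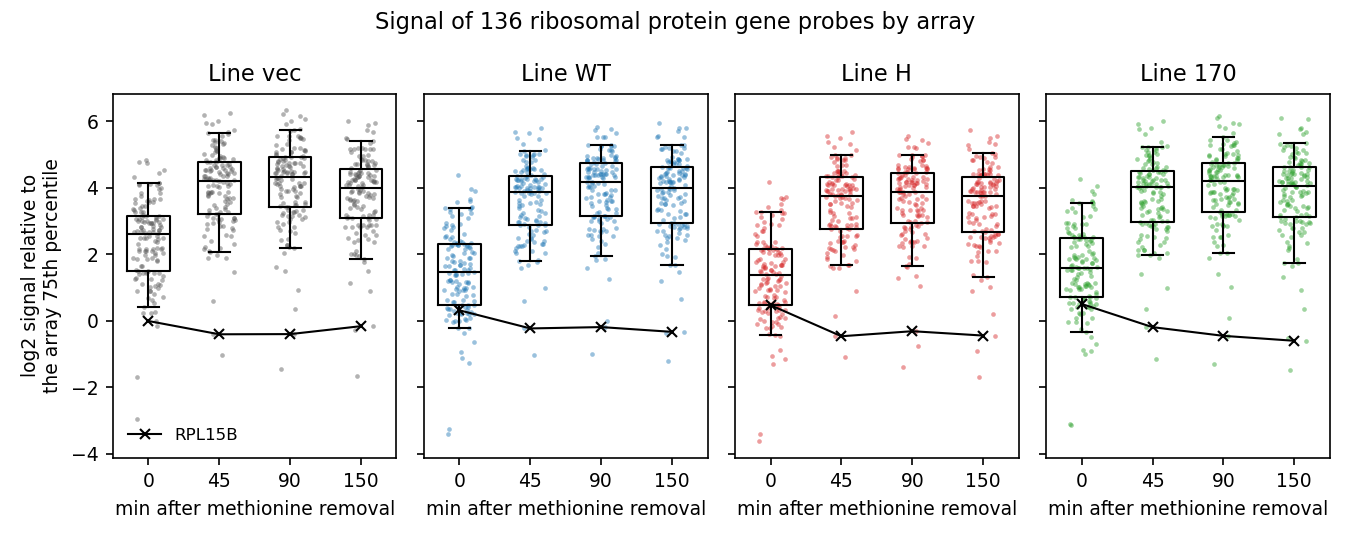
Log2 signal relative to the array's 75th percentile (vertical) of the 136 ribosomal protein gene probes at 0, 45, 90 and 150 min after methionine removal (horizontal), 1 array per line and time. Boxes span the quartiles with the median, whiskers the 5th to 95th percentile, points are probes, and the crosses follow RPL15B. The median of vec at 0 min, 2.60, lies above the 1.37 to 1.60 of the other lines, and RPL15B falls in every line.

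Most of the rise was complete at the first time sampled. Between 45 and 90 min only 8 of 136 members passed as higher and 0 as lower, with a median step of 0.20. Of all genes 13.9% passed as higher and 10.6% as lower. The fitted step was above 0 in 126 members and below 0 in 10. The members that passed were RPL24B, RPL41A, RPL41B, RPL43A, RPP1A, RPS14A, RPS20 and RPS25A, with steps of 0.30 to 0.46. Between 90 and 150 min the median step was -0.20, and RPS30B alone passed (-0.34 ± 0.080, adjusted p = 0.0417), as a fall, where 2.19% of all genes fell and 1.57% rose. With line vec left out, 71 members passed as higher and 1 as lower in the first step and 18 as lower in the second. With any other single line left out 0 passed in either step. The shares of all genes above belong to the fit with all lines, and none is given for the fits with a line left out. Whether the gain in calls without vec was particular to the members therefore cannot be told from these counts. In the order of the times within each line, 90 min was the highest for 111 members in line WT, 92 in line H, 119 in vec and 115 in line 170.

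Among the strongest responses were both copies of RPS22 together with RPL9A, RPL18B, RPS9B and RPL14A. RPL9A, which encodes a 60S protein near the site where elongation factors bind, stood at 0.44 (WT), 0.37 (H), 2.50 (vec) and 0.23 (170) at 0 min and between 4.07 and 4.94, with a median of 4.49, on the 12 later arrays. Its change, 3.55 ± 0.25 (SE) or 11.7-fold for the mean of the later times, was the largest of any member (limma, adjusted p = 5.93e-08, higher in 4 of 4 lines). All 3 lines with HOG1 started about as low as each other, and vec started far above them. RPS22B, one of the copies that encode a protein of the 40S body, stood at -0.94 (WT), -1.05 (H), 0.89 (vec) and -0.87 (170) at 0 min and between 2.18 and 3.29 later, a change of 3.28 ± 0.21. RPS22A changed by 3.03 ± 0.22, from 1.13 to 3.18 at 0 min to 4.40 to 5.15 later. The A and B copies of RPS22 thus both belong to the 6 members with the largest change.

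RPL18B changed by 2.90 ± 0.19, RPS9B, whose protein lines the entry channel of the mRNA, by 2.81 ± 0.19, and RPL14A by 2.80 ± 0.16. RPL18B stood at -3.63 to -1.69 at 0 min and at -0.92 to 0.58 later. In each of these genes the later arrays lay above all 0 min arrays, and the vec array was the highest of the 0 min arrays. The largest adjusted p among the 6 members with the largest change was 8.23e-08.

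RPL15B was the one member that fell. Its product is a 60S protein that is also made from RPL15A, and only the A copy is needed for growth in standard strains. RPL15B stood at 0.31 (WT), 0.47 (H), -0.01 (vec) and 0.50 (170) at 0 min. On the later arrays it stood at -0.23, -0.19 and -0.34 in line WT, at -0.47, -0.32 and -0.45 in line H, at -0.41, -0.40 and -0.16 in vec and at -0.19, -0.46 and -0.60 in line 170. Every later array lay below every 0 min array, a pattern that 22.1% of all genes share. The change was -0.67 ± 0.11 (adjusted p = 8.16e-05, lower in 4 of 4 lines). In a fit to the arrays of vec and line 170 only, which share a slide, the changes at the single times kept their direction, at -0.55, -0.68 and -0.63, and no longer passed.

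The smallest rises were those of RPL22B and RPS14B. RPL22B encodes a 60S protein that yeast can grow without. It stood at 0.03 (WT), -0.09 (H), 0.25 (vec) and 0.42 (170) at 0 min and between 0.19 and 1.45 later, a change of 0.73 ± 0.12 (adjusted p = 0.000106). In line 170 it was back at 0.36 at 150 min, below its 0 min value. RPS14B encodes a 40S protein of the platform, and the splicing of its transcript is known to be inhibited by the Rps14 protein. It stood at 0.56 (WT), 0.74 (H), 0.24 (vec) and 1.24 (170) at 0 min and peaked at 45 min, or at 45 and 90 min alike, at 1.67 to 1.90, before it stood at 1.203, 0.89, 1.13 and 1.33 at 150 min. Its change over the later times was 0.82 ± 0.12 (adjusted p = 2.99e-05), and vec had the lowest 0 min value here, unlike most members. RPS27A changed by 1.21 ± 0.091, RPL3, which reaches the peptidyl transferase centre and has no second copy, by 1.21 ± 0.072, and RPP2B by 1.33 ± 0.067. The order of these small rises depended on the processing. Over 16 alternatives RPL3 ranged from 0.30 to 1.31 and RPP2B from 0.52 to 1.44, against 0.60 to 0.87 for RPL22B and 0.66 to 0.94 for RPS14B.

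The 5 genes of the stalk, the flexible arm of the 60S subunit that recruits elongation factors, all rose, but not equally. RPP0, the anchor on which the smaller P proteins sit, stood at 3.26 to 4.32 at 0 min and at 5.13 to 5.999 later, a change of 1.91 ± 0.12. The acidic proteins changed by 1.69 ± 0.069 (RPP1A), 2.43 ± 0.13 (RPP1B), 2.21 ± 0.12 (RPP2A) and 1.33 ± 0.067 (RPP2B), each higher in 4 of 4 lines with an adjusted p of at most 2.97e-08. RPP1B and RPP2A, which form one of the heterodimers of the stalk, changed more than RPP1A and RPP2B, which form the other, and the tests of these differences are given with the pairs.

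Large and small subunit genes had close median changes. Without the stalk the median change was 2.01 for the 75 large subunit genes and 2.11 for the 56 small subunit genes at 45 min, 2.23 and 2.33 at 90 min, and 2.05 and 2.12 at 150 min. Within the lines the medians of the 80 large and 56 small subunit genes, averaged over the later times, were 2.31 and 2.47 in line WT, 2.21 and 2.29 in line H, 1.55 and 1.57 in vec, and 2.26 and 2.39 in line 170. The small subunit's median was above the large subunit's in each of these, by less than the distance between either group's quartiles. Among the large subunit genes the change over the later times ran from -0.67 to 3.55, with RPL15B and RPL9A at its ends, and among the small subunit genes from 0.82 to 3.28, with RPS14B and RPS22B at its ends. The 19 genes without a second copy had a median of 1.91, against 2.11 for the 58 A copies and 2.16 for the 58 B copies. These medians are descriptions and were given no test.

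**Figure D2:**
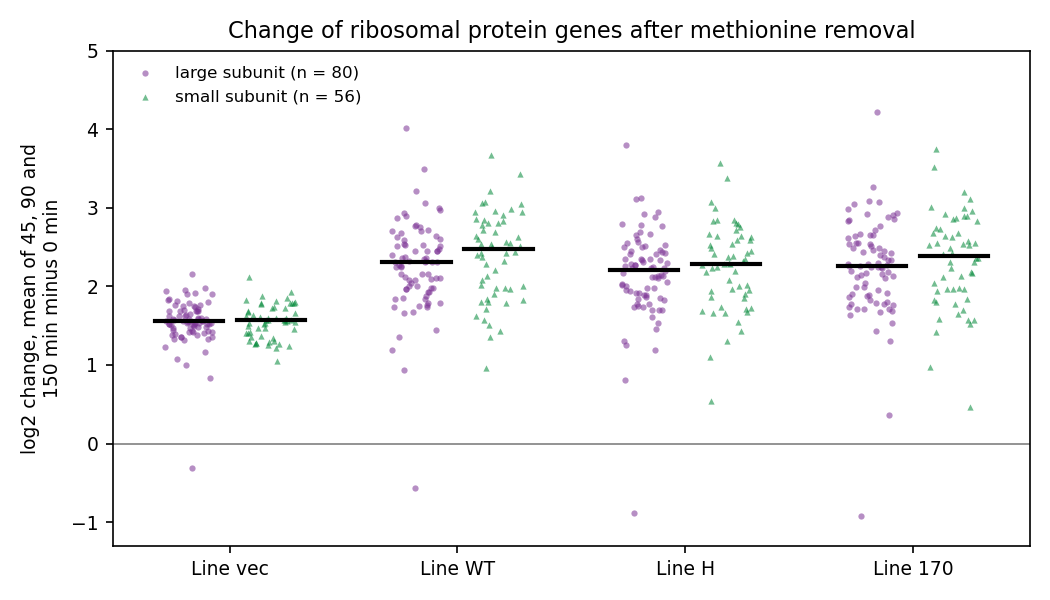
Log2 change from 0 min to the mean of 45, 90 and 150 min (vertical) of the large subunit genes with the stalk (circles, n = 80) and of the small subunit genes (triangles, n = 56) in each line (horizontal). Bars are medians, 1.55 and 1.57 in vec and 2.21 to 2.47 in the lines with HOG1, and the point below 0 in each line is RPL15B.

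The gene pairs were compared through the change of A minus B, since levels of different probes cannot be set against each other. Each pair's row was fitted and adjusted together with all genes, in a table where 79.1% of 6223 rows passed. The A copy rose more in 23 of 58 pairs, the B copy in 23, and 12 did not pass, a share near that of all rows, with as many pairs on one side as on the other. The median of A minus B was 0.06 and the median of its absolute value 0.26. Only 3 passing pairs differed by 1 log2 unit or more and 17 by 0.5 or more. The direction was the same in 4 of 4 lines in 46 pairs. With vec and line 170 only, 12 pairs passed. The probes' sequences were not used here, so signal that the probes of near-identical copies share cannot be told apart from each copy's own signal.

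RPL15 parted furthest. RPL15A stood at 1.66 (WT), 1.75 (H), 2.68 (vec) and 1.54 (170) at 0 min and between 3.74 and 4.30 later, a change of 2.10 ± 0.14, while RPL15B fell as given above. A minus B changed by 2.77 ± 0.21 (adjusted p = 1.49e-07), by 3.10 in line WT, 3.11 in line H, 3.18 in line 170 and 1.69 in vec. The RPL22 pair came next: RPL22A changed by 2.40 ± 0.14, from 1.83 to 3.06 at 0 min to 4.23 to 4.93 later, against 0.73 for RPL22B. Their difference of 1.67 ± 0.19 (adjusted p = 4.91e-06) was 1.71, 1.75 and 2.36 in lines WT, H and 170 and 0.85 in vec.

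In RPL9 both copies rose strongly, and RPL9A rose more than RPL9B (2.51 ± 0.18) by 1.04 ± 0.093 (adjusted p = 5.48e-07). RPS27, whose product is a zinc finger protein of the 40S subunit, went the other way: RPS27B changed by 2.18 ± 0.12 and RPS27A by 1.21, a difference of -0.97 ± 0.15 (adjusted p = 7.76e-05). RPS14A changed by 1.77 ± 0.11, which is 0.95 ± 0.17 more than RPS14B (adjusted p = 0.000234), with 1.04, 1.36 and 1.36 in lines WT, H and 170 but 0.05 in vec. RPP2A exceeded RPP2B by 0.88 ± 0.13 (adjusted p = 5.16e-05), with 1.18, 1.101 and 1.09 in these lines and 0.15 in vec. In the other acidic stalk pair RPP1A changed less than RPP1B, by -0.74 ± 0.091 (adjusted p = 9.90e-06). RPL7A, which encodes a 60S protein, changed by 2.72 ± 0.16 and RPL7B by 1.89 ± 0.093, a difference of 0.83 ± 0.13 (adjusted p = 8.16e-05). In RPS22 the B copy rose more than the A copy, with a difference of -0.25 ± 0.059 (adjusted p = 0.00206).

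**Figure D3:**
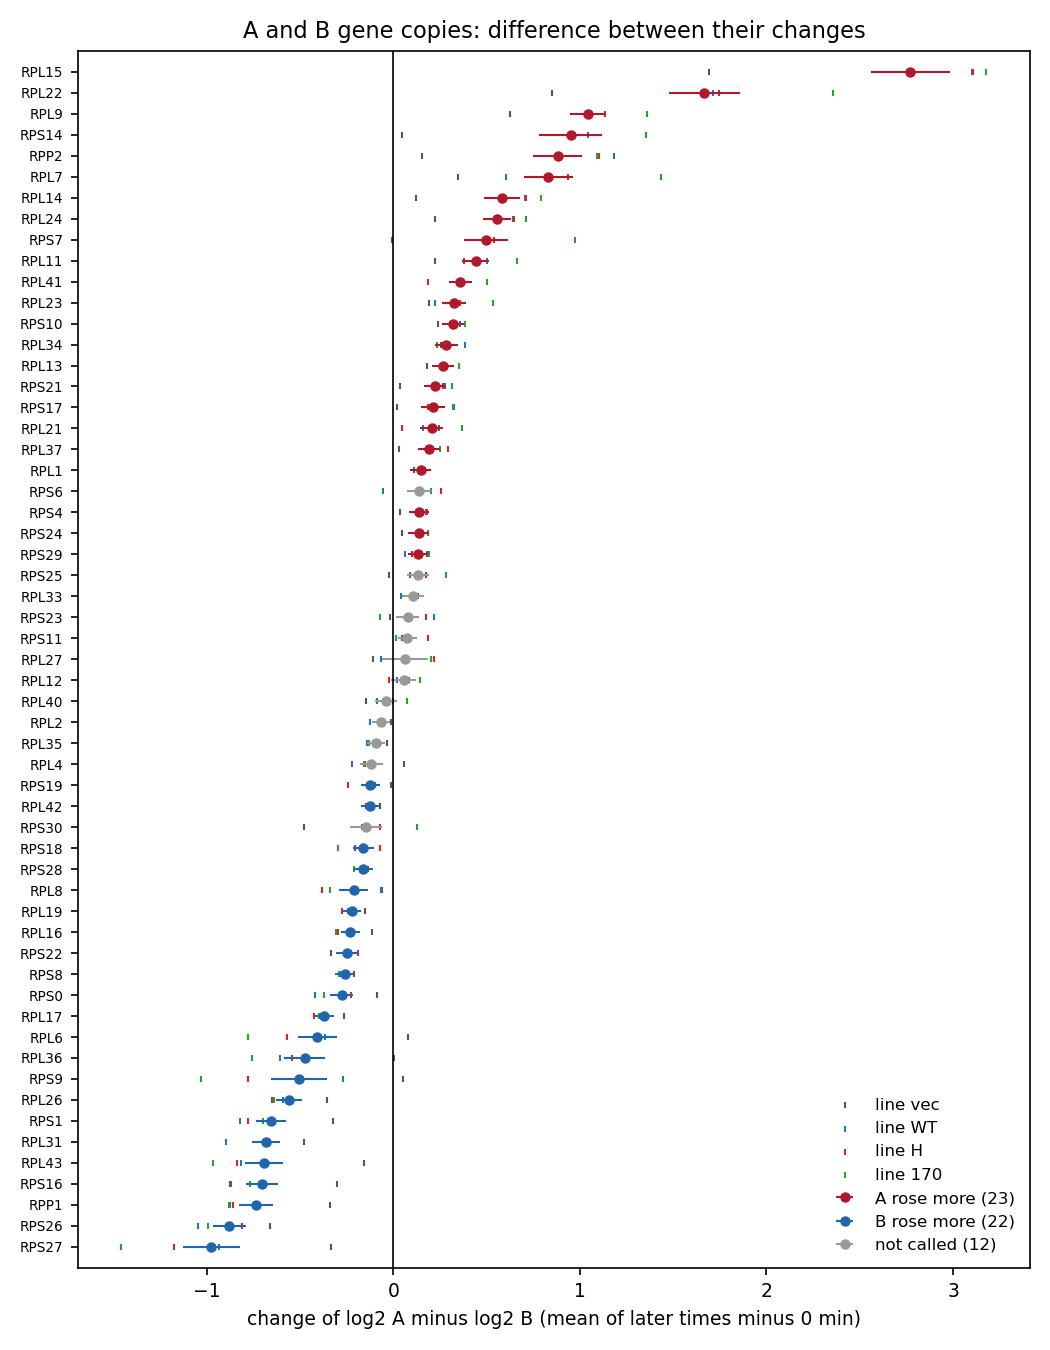
Change of log2 A minus log2 B from 0 min to the mean of the later times (horizontal) for 57 of the 58 gene pairs (vertical, sorted), with circles and bars for the fitted value and its SE over 16 arrays and ticks for the single lines. RPL15, RPL22 and RPL9 lie at 1 or more and RPS27 at -0.97. In 39 of the 45 passing pairs shown the tick of vec is nearest to 0. RPL18, which also passed, is not shown, and with it the count is 39 of 46. All ticks of vec rest on the same 0 min array.

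**Figure D4:**
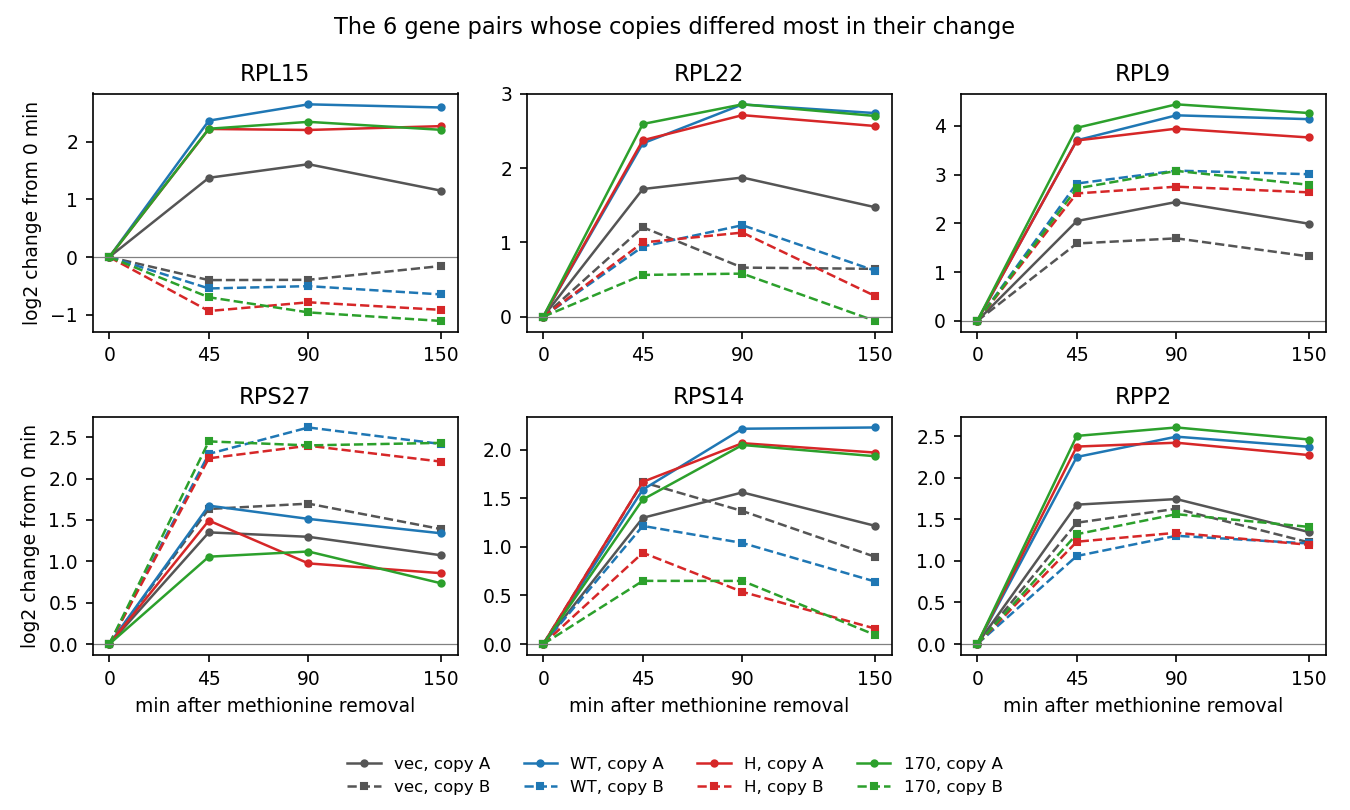
Log2 change from 0 min (vertical) against minutes after methionine removal (horizontal) for the A copy (solid) and B copy (dashed) of the 6 pairs that differed most, 1 array per line and time. RPL15B is the only copy below 0 at every later time, and the copies of RPS14 and RPP2 lie closer together in vec than in lines WT, H and 170.

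Before methionine was removed, ribosomal protein genes were lower in every line with a HOG1 plasmid than in vec. At 0 min 123 of 136 members were lower in line WT and 0 higher, with a median difference of -0.97 (of all genes 13% were lower and 11.4% higher). In line H 129 were lower and 1 higher, with a median of -1.08 (of all genes 17.8% lower and 14.5% higher), and in line 170 112 were lower and 1 higher, with a median of -0.91 (of all genes 18.5% lower and 12.2% higher). The medians of all genes were 0.03, 0.01 and -0.05. All 3 comparisons share the single vec array at 0 min, so they are not independent of each other, and 110 members were lower in all of them. The share of all genes lower in all 3 was not counted, so this joint count cannot be set against it. Each 0 min value is 1 array, whose spread was taken from the later times. With 90 min left out of that fit 69 members in line WT and 72 in line 170 passed as lower. Vec and line 170 were on the same slide, while lines WT and H were on the other.

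RPL9A had the largest difference in each line at 0 min, at -2.05 ± 0.18 in line WT, -2.13 ± 0.18 in line H and -2.27 ± 0.18 in line 170 (adjusted p = 0.000771, 0.000225 and 0.000144). RPS22A was lower, at -1.80 ± 0.17, -2.05 ± 0.17 and -1.86 ± 0.17. Not all members took part: RPL15B, RPL22B, RPL7B, RPP2B, RPS14B and RPS27A were lower in none of the 3 lines. RPS14B was the 1 member that was higher, by 0.50 ± 0.15 in line H (adjusted p = 0.0323) and by 1.0003 ± 0.15 in line 170 (adjusted p = 0.00168), with 0.32 ± 0.15 in line WT (adjusted p = 0.145). No member passed between any of the lines with HOG1 at 0 min in limma's test, where 1 member for H against WT, 10 for 170 against WT and 37 for H against 170 had an unadjusted p under 0.05. Of all genes 0.0162%, 0.178% and 0.114% passed there.

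The gap to vec narrowed after removal. For line WT the median difference went from -0.97 at 0 min to -0.38, -0.20 and -0.00 at 45, 90 and 150 min. For line 170 it went from -0.91 to -0.25, -0.11 and 0.02. For line H it went from -1.08 to -0.49, -0.49 and -0.32, and 132 of 136 members were still below vec at 150 min (of all genes 50.69%). The rise from 0 min was therefore larger in each HOG1 line than in vec. The median member changed by 2.34 in line WT, 2.25 in line H and 2.29 in line 170, and by 1.56 in vec. In the test of the difference between these changes 78 members passed as larger in line WT and 0 as smaller, with a median of 0.80 (of all genes 5.76% larger and 2.61% smaller). In line H 76 were larger and 1 smaller, with a median of 0.71 (of all genes 12% larger and 6.7% smaller), and in line 170 85 were larger and 1 smaller, with a median of 0.79 (of all genes 13.6% larger and 7.58% smaller). These counts rest on the arrays at 90 min: without them 0, 0 and 1 members passed, although the medians stayed at 0.81, 0.70 and 0.79. Between the lines with HOG1 no member's change passed as different in limma's test, with 2 members for H against WT, 4 for 170 against WT and 0 for H against 170 at an unadjusted p under 0.05, and 0% of all genes passed in each.

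**Figure D5:**
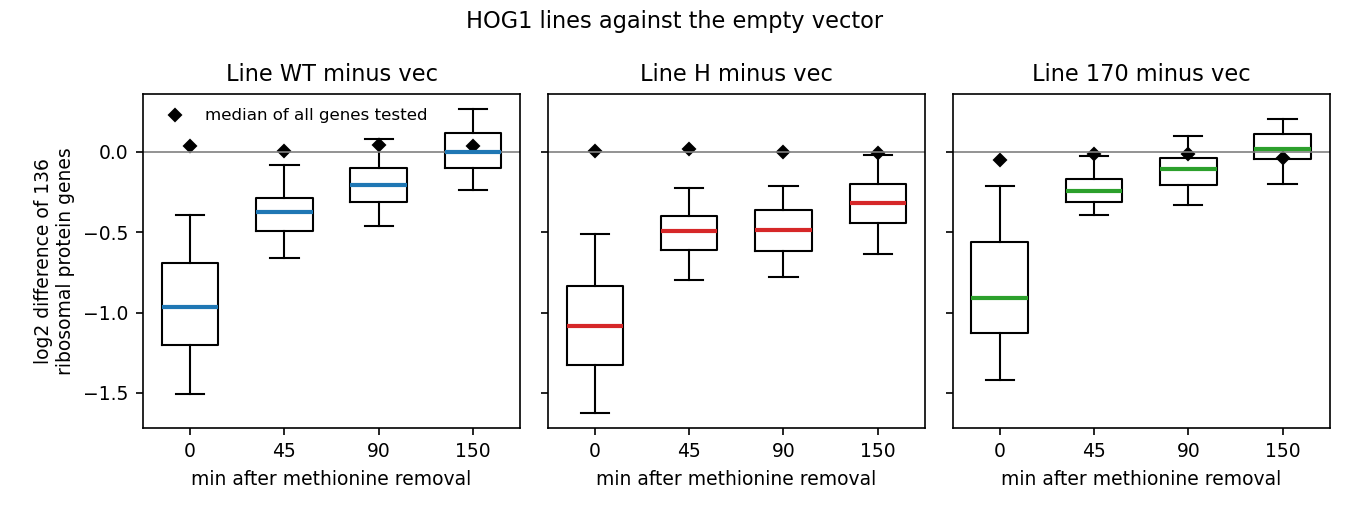
Log2 difference of the 136 ribosomal protein genes from vec (vertical) at each time after methionine removal (horizontal) for lines WT, H and 170. Boxes span the quartiles with the median, whiskers the 5th to 95th percentile, and diamonds are the medians of all 6165 genes. The medians go from -0.97, -1.08 and -0.91 at 0 min to -0.00, -0.32 and 0.02 at 150 min, and the same vec array enters each panel at a given time.

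After removal, line H held the lowest ribosomal protein gene signals. Over 45, 90 and 150 min 118 of 136 members were lower in line H than in vec and 0 higher, with a median of -0.43, while 24.6% of all genes were lower and 25.2% higher. The large and small subunits shared this, with 69 of 80 and 49 of 56 lower. In line WT 40 were lower than in vec and 1 higher, with a median of -0.19 (of all genes 12.8% lower and 16.9% higher), and in line 170 10 were lower and 0 higher, with a median of -0.11 (of all genes 16.4% lower and 16% higher). The share of members lower in line 170 is below that of all genes. These comparisons share the vec arrays, and 2 members were lower than vec in all 3, a count for which the share of all genes was not taken. Line H against line 170 gave 73 lower and 0 higher, with a median of -0.33 (of all genes 6.68% lower and 9.75% higher), and line H against line WT, within a slide, gave 3 lower and 0 higher, with a median of -0.24 (of all genes 1.67% lower and 4.56% higher). In that last comparison 130 of 136 members were lower in line H at 45 min and 136 of 136 at 90 min and at 150 min. Of all genes 51.42%, 56.17% and 54.71% were lower there at these times. Line 170 against line WT gave 14 higher and 3 lower, with a median of 0.07 (of all genes 6.88% higher and 10.9% lower). Only H against WT and 170 against vec lay within a slide. In the other comparisons line and slide cannot be told apart.

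These differences between lines depended on the scaling and on single times. Under quantile normalization the counts became 29 lower and 4 higher for H against vec (median -0.09), 4 lower and 5 higher for WT against vec (median -0.01), and 17 lower and 2 higher for H against 170 (median -0.06). Line 170 against WT turned to 6 lower and 5 higher, with a median of -0.02. Without the arrays at 90 min 33 members passed for H against vec and 0 for the other comparisons of lines after removal.

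RPL7A differed most between line H and vec. After removal it stood at 1.68, 1.90 and 1.80 in line H at 45, 90 and 150 min and at 2.57, 2.83 and 2.50 in vec. It stood at 1.81, 2.32 and 2.27 in line WT and at 2.28, 2.84 and 2.58 in line 170, so at every time line H was lowest and line WT next. The difference was -0.84 ± 0.10 for H against vec (adjusted p = 0.000282), -0.50 ± 0.10 for WT against vec (adjusted p = 0.00855) and -0.77 ± 0.10 for H against 170 (adjusted p = 0.00512). RPL23B, a 60S protein of the subunit interface, followed with -0.80 ± 0.086 for H against vec and with -0.50 ± 0.086 for WT against vec. Line H was again lowest and line WT next at each time. Lines H and WT shared a slide, and vec and line 170 shared the other. For both genes the gap between these slides cannot be told apart from a difference between lines. RPL7B, the other copy of RPL7, was the 1 member higher in WT than in vec (0.30 ± 0.10, adjusted p = 0.0496), and it lost its call in 8 of 12 alternatives.

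Among the members lower in line 170 than in vec, RPS9A stood at -0.38 ± 0.11 (adjusted p = 0.0322), RPS13, a single copy 40S gene, at -0.33 ± 0.100 and RPL3 at -0.28 ± 0.088. None of the 10 calls of this comparison held when any 1 of the later times was left out, when vec and line 170 were fitted alone or at a threshold of 0.01, where limma passed 0 members each. Against line WT, RPS9A (-0.43 ± 0.11), RPL15A (-0.40 ± 0.11) and RPL3 (-0.32 ± 0.088) were the 3 that were lower. RPL11A, which encodes a 60S protein bound to 5S rRNA, had the largest positive difference, with 2.76, 3.16 and 2.92 in line 170 at 45, 90 and 150 min and 2.30, 2.56 and 2.50 in line WT. The difference was 0.49 ± 0.098 (limma, adjusted p = 0.0146), and it lost its call in 3 of 12 alternatives. Lines 170 and WT were on different slides, so line and slide cannot be told apart here. RPS30A (0.45 ± 0.087) and RPL7A (0.43 ± 0.10) were next. In line H minus line 170, RPL11A stood at -0.73 ± 0.098 and RPL23B at -0.68 ± 0.086, so both were lower in line H. The 3 members that passed as lower in line H than in line WT were RPL18B (-0.58 ± 0.12), RPL31B (-0.47 ± 0.082) and RPL43B (-0.38 ± 0.089). They lost their calls in 3, 5 and 6 of 13 alternatives. All 3 are B copies of 60S genes, but the fitted difference was below 0 in all 136 members. Its median was -0.24 for A copies and -0.24 for B copies, and -0.24 for large and -0.23 for small subunit genes.

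The pairs were also compared between lines. In the difference from vec of the change of A minus B, 5 of 58 pairs passed in line WT, 9 in line H and 15 in line 170, where 8.44%, 18.9% and 21.4% of all rows passed, so the shares of pairs lay near those of all rows. The same 5 pairs, RPL14, RPL15, RPL43, RPP2 and RPS14, passed in all 3 lines, which share the vec arrays. How many of all rows passed in all 3 was not counted. Between lines after removal the level of A minus B passed for 14 pairs in H against vec, 9 in WT against vec and 1 in 170 against vec, and for 4, 4 and 0 pairs in H against 170, 170 against WT and H against WT. All rows passed at 49.6%, 29.7% and 32.2%, and at 16.4%, 17.7% and 6.28%, each above the share of pairs.

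Across the 136 genes the changes in lines WT, H and 170 lay close together, with Pearson's r of 0.978 (WT and H), 0.961 (WT and 170) and 0.976 (H and 170). With vec r was 0.865, 0.869 and 0.850 for WT, H and 170. These are descriptions across genes that share arrays and scaling, and genes are not independent replicates.

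Many other genes of ribosome production were also higher in the mean of the later times, where 34.8% of all genes were higher and 44.2% lower. All 70 ribosome biogenesis genes were higher, with a median of 1.61, led by the RNA helicase gene HAS1 (3.39 ± 0.18) and followed by DBP2 (3.16 ± 0.27) and the nucleolar NOP1 (2.77 ± 0.14). Their course differed from that of the ribosomal protein genes. The median of these 70 genes was 2.10, 1.57 and 1.13 at 45, 90 and 150 min, against 2.06, 2.25 and 2.07 for the ribosomal protein genes. Between 45 and 90 min 60 of the 70 passed as lower and 0 as higher. Of all genes 10.6% passed as lower and 13.9% as higher in that step. All 32 translation factor genes were higher, with a median of 1.67, led by TEF4 (3.10 ± 0.24) and EFB1 (2.55 ± 0.17), subunits of the elongation factor eEF1B. Of 15 genes listed as dedicated chaperones of ribosomal proteins, a list drawn broadly, 14 were higher, with RRB1, which escorts Rpl3, at 2.05 ± 0.094. Of 15 RNA polymerase I genes 10 were higher and 2 lower. Of 4 tested genes of the list of decay and ribosome reserve factors, ASC1, a 40S-bound scaffold (2.87 ± 0.22), and STM1, which clamps idle ribosomes (2.49 ± 0.15), were higher and UPF3 and NMD2 lower. Of 43 mitochondrial ribosomal protein genes 28 were higher and 3 lower, with a median of 0.38, well under the 2.11 of the cytosolic set. In contrast 20 of 24 Msn2 and Msn4 stress genes were lower and 1 higher, with a median of -1.48. The part of these in the members' change was not tested.

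The transcripts of the regulators moved in both directions over the later times, 6 higher and 13 lower of 26. Of all genes 34.8% were higher and 44.2% lower, so a split in both directions was common. RAP1 rose by 0.45 ± 0.12 (adjusted p = 0.00338), whereas FHL1 (0.18 ± 0.12, adjusted p = 0.17), IFH1 (-0.00 ± 0.091, adjusted p = 0.985) and HMO1 (0.10 ± 0.093, adjusted p = 0.35) did not pass. CRF1, which encodes the corepressor that competes with Ifh1 for Fhl1, was lower, at -2.73 ± 0.16 (adjusted p = 1.24e-08). YAK1, whose kinase acts on Crf1, was lower, at -1.61 ± 0.097, and the protein kinase A subunit gene TPK2 at -0.87 ± 0.068. SFP1 was lower, at -0.50 ± 0.100, and TOD6 (1.13 ± 0.12) and ABF1 (0.89 ± 0.13) were higher.

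The line differences of the members were not shared evenly by these lists. In line H against vec after removal 7 ribosome biogenesis genes were higher and 2 lower of 70 (of all genes 25.2% higher and 24.6% lower). Their median was -0.04, against -0.43 for the ribosomal protein genes. Of the mitochondrial ribosomal protein genes 28 of 43 were lower, with a median of -0.35, and of the Msn2 and Msn4 genes 13 of 24 were higher. At 0 min, biogenesis genes had medians of -0.07, -0.09 and -0.29 for WT, H and 170 against vec, with 5, 8 and 13 of 70 lower and 0 higher, where the ribosomal protein genes had -0.97, -1.08 and -0.91. Translation factors had 14, 14 and 18 of 32 lower, where 13%, 17.8% and 18.5% of all genes were lower. The shares of biogenesis genes lay near or below these. No test of the difference between lists was made.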

How the data were processed

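Spot intensity files of 16 arrays were used. Per the file headers, Agilent Feature Extraction 10.7.1.1 gave a processed intensity per spot, background-subtracted and not scaled between arrays. The deposited log2 values of 6107 probes, which the values show to be centred per probe within a slide, served as an alternative within slides only. Here log2 of the processed intensity was averaged over the spots of a probe, leaving out a lone outlier-flagged spot, and the array's 75th percentile was subtracted. A gene was tested where a probe lay well above background on 3 or more of 16 arrays (6165 of 6227 genes). The brightest probe stood for a gene. Systematic names were matched to RefSeq symbols (R64, names only, 5740 matched), since the files used here hold no symbols. No coordinates or sequences are given. Tests were limma 3.58.1 in R 4.3.3 (lmFit, eBayes, two-sided) with Benjamini-Hochberg adjustment and a threshold of 0.05. Time was fitted on 16 arrays with line, lines on 12 later arrays with time, and 0 min values and changes from 0 min with line by later time. Pair rows of log2 A minus log2 B were adjusted with all genes. The fits were tested on simulated arrays.

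The members, the gene lists and the naming rule were chosen with earlier results of these data known. The rule names the stalk genes, the 6 members with the largest and the 6 with the smallest change, members lower in a time comparison, up to 3 highest and 3 lowest passing members per line comparison that differed alike at 3 of 3 times, the 6 pairs that differ most, both copies of RPL22, RPS22, RPL7, RPL9 and RPS14, up to 6 genes per list and 6 regulators. Some genes that it names are not reported here. RPS20, RPS25A and the other members of the 2 steps between later times, the pairs beyond these 6, and the members lower in no line at 0 min, were named after their values were seen. Alternatives changed background correction (normexp, offset 50), scaling, filter, probe choice, variance model, threshold, arrays and the table used.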

Additional observations from a re-analysis of the deposited data

Results flagged for a closer look

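The change from 0 min to the later times differed between vec and each line with HOG1 in the test of the difference itself, for 78 of 136 ribosomal protein genes in line WT, 77 in line H and 86 in line 170, where of all genes 5.76%, 12% and 13.6% had a larger change than vec and 2.61%, 6.7% and 7.58% a smaller one. Without the arrays at 90 min 0, 0 and 1 members passed. Of the 58 gene pairs, 5, 9 and 15 differed from vec in the change of A minus B, shares near the 8.44%, 18.9% and 21.4% of all rows that passed. The values below are the change in the line minus the change in vec, on the log2 scale, and all rest on the same vec arrays, of which 1 was taken at 0 min.

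In lines WT, H and 170 the change was larger than in vec by 1.86, 1.64 and 2.06 for RPL9A, by 1.64, 1.59 and 1.73 for RPS22A, and by 1.55, 1.45 and 1.63 for RPS22B. It was larger by 1.59, 1.21 and 1.17 for RPL18B, by 1.47, 1.33 and 1.46 for RPS9B, and by 1.13, 1.18 and 1.15 for RPL14A. RPS14B went the other way, with -0.76 in line H and -0.84 in line 170.

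Among the 6 pairs that differed most, A minus B exceeded vec by 1.41, 1.41 and 1.48 in RPL15, by 0.996, 1.31 and 1.31 in RPS14, and by 1.03, 0.95 and 0.94 in RPP2 in lines WT, H and 170. RPL9 differed by 0.51 in line H and 0.73 in line 170. In line 170 RPL22 also differed, by 1.504, and RPS27 by -1.12. Groups of 1 array allow no test for an outlying array within a group.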

How the results depend on the processing

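No paired analysis was possible because the labels give no replicate numbers to pair arrays by, and the line was already a term in the fits of time. Against 0 min 133 to 136 members passed in either direction in the 16 alternatives of each time, with RPL15B as the 1 lower member where it passed, with a lower median under quantile normalization (1.58, 1.74 and 1.61 at 45, 90 and 150 min) and the median of all genes at -0.02 instead of -0.17 at 45 min under median scaling. No saturated gene spot was present, so the alternative without them changed nothing. Of 750 alternatives of 52 named values 660 kept their call, 90 lost it and 0 reversed. Of the 750, 336 were alternatives of members' changes over the later times, and all 336 kept their call. The 90 losses thus all lay among the line differences, the pairs and the single times of RPL15B, which were less stable than the total shows. Leaving out 1 line or time in turn moved the number of members that passed between 0 and 72 for 90 against 45 min, 0 and 18 for 150 against 90 min, 33 and 113 for H against vec, 0 and 30 for WT against vec, 0 and 0 for 170 against vec, 0 and 24 for H against WT, 0 and 10 for 170 against WT and 0 and 58 for H against 170 after removal. At 0 min it moved them between 69 and 127 for WT and 73 and 114 for 170, and for the change from 0 min between 0 and 92 (WT), 0 and 89 (H) and 1 and 97 (170). In 90 against 45 min median scaling gave 4 members, quantile normalization 2, the threshold of 0.01 0, slide 1 24 and slide 2 0, and the deposited values 25 on slide 1 and 0 on slide 2. In 150 against 90 min quantile normalization gave 0, a variance trend 2, the threshold of 0.01 0, slide 1 2 and slide 2 0, and the deposited values 2 and 0. On slide 2 12 pairs passed, and 13 with the deposited table. Quantile normalization gave 9 members for WT against vec and 11 for 170 against WT, both turned in balance, with a median of -0.0229 for the latter, 33 for H against vec, 2 for 170 against vec and 19 for H against 170. The threshold of 0.01 left 5 (WT against vec), 0 (170 against vec), 0 (H against WT), 0 (170 against WT) and 20 (H against 170), and 21, 21 and 46 changes from 0 min in WT, H and 170 against vec. Only the lines compared gave 0 (WT against vec), 78 (H against vec), 0 (170 against vec), 1 (H against WT) and 10 (170 against WT). Normexp gave 10 for H against WT, and the deposited table gave 1 for it, 0 for 170 against vec, 69 for it at 0 min and 3 for its change from 0 min. The cause of these shifts was not tested, and the shares of all genes that passed in these alternatives are not given. All members lay far above background, with signals of 514.5 to 533900 units, and with 1 array per line and time the precision is limited.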
